A study of Bos taurus with 16 samples.

Results

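The genes described here are those whose level in bovine endometrium peaked on day 18 after timed insemination, as far as a median over 4 animals can show it. A gene was taken when its day 18 value was at least 2 times the value of each of days 5, 10 and 14 and its day 18 median was at least 2 CPM. CPM is the read count of a gene per 1000000 reads counted in genes, and the value of a day is the median CPM of its 4 libraries plus 0.5. The rule found 73 of 27607 gene IDs, or 0.536% of the 13616 IDs with a day 18 median of at least 2 CPM. The genes were chosen by their CPM in all 16 libraries, the same values as given below, so their day 18 levels are a description and carry no test.

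RNA was sequenced from biopsies of endometrium, the inner lining of the uterus, in 16 libraries, 4 each from days 5, 10, 14 and 18. All animals were virgin Holstein heifers, at least 7 months old and at least 340 kg in weight, assigned at random to their day. All had been synchronised with a GnRH analog, an intravaginal progesterone device and 2 doses of the prostaglandin F2α analog cloprostenol, and all were then inseminated once with Holstein semen. The labels do not say for any animal whether an embryo was found, and samples of day 0 were not analysed here. A biopsy holds epithelium, stroma, vessels and immune cells together, so more RNA per cell and more cells of a type cannot be told apart.

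Genes appear in the files under Ensembl IDs without symbols, and 0 of the 27607 IDs matched the reference table of RefSeq genes, so no gene is given a symbol, a function, a position or a sequence. For the same reason the tissue label could not be checked against marker genes, and the gene lists set up for this tissue were not used. By textbook knowledge, the days around day 18 are those in which the elongating ruminant conceptus secretes interferon tau, to which the endometrium answers with a broad set of interferon-stimulated genes and with a block of the prostaglandin pulses that would end the cycle. In an animal without a conceptus the same days lead to luteolysis and the return to oestrus. Which of the 73 genes belong to either process was not tested.

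No gene of the 73 was 2-fold higher in all 4 day 18 libraries. A day 18 library is said to carry a rise when its CPM plus 0.5 reached 2 times the highest value of days 5, 10 and 14, called the 2-fold line below. Of the 73 rises, 51 were carried by 2 libraries, 22 by 3 and 0 by 4. The fewest the rule allows is 2, since a median of 4 libraries reaches the line only if at least 2 of them do. Replicate 2 carried 68 of the rises, replicate 4 carried 62, replicate 1 carried 35 and replicate 3 carried 3. In replicate 3, 53 of the 73 genes lay below the highest value of the other days, 17 lay between that value and the 2-fold line, and 1 gene had no read. Replicate 3 was the lowest of the 4 day 18 libraries in 47 genes and the highest in 0.

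**Figure D1:**
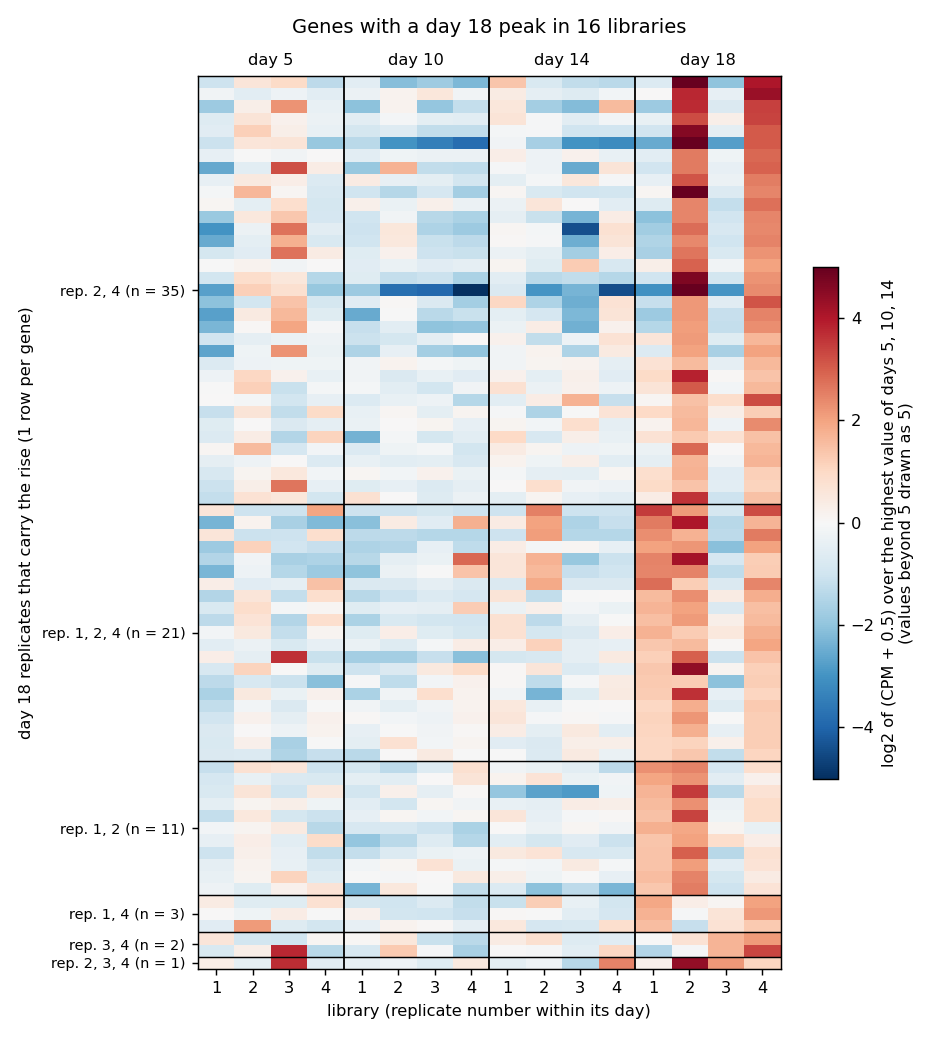
Each row is 1 of the 73 genes and each column 1 of the 16 libraries; the colour is the log2 ratio of CPM plus 0.5 to the highest of the values of days 5, 10 and 14, and rows are sorted by the day 18 replicates that carry the rise. Red marks any level above that highest value, also one short of the 2-fold line. In replicates 1 to 4 of day 18, 35, 68, 3 and 62 genes are at the 2-fold line.

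Over all genes, day 18 replicate 2 and day 5 replicate 3 stood apart from the other libraries. Day 18 replicate 2 had a mean Pearson correlation of 0.855 with the other 15 libraries, taken over log2 CPM of all genes tested, and day 5 replicate 3 one of 0.859, against 0.916 to 0.939 for the other 14. With the libraries of its own day alone, day 18 replicate 2 had a mean of 0.866, day 5 replicate 3 of 0.870 and day 18 replicate 3 of 0.888, the 3 lowest, and replicates 1 and 4 of day 18 had 0.910 and 0.909. Replicate 2 of day 18 also had the highest share of unmapped reads, 11.0%, against 7.47% to 9.48% in the others. Between 18959090 and 24291006 reads were counted in genes, with replicates 1 to 4 of day 18 at 20432562, 20668927, 21757330 and 18959090. Over all 27607 IDs, 845 were at the 2-fold line with at least 2 CPM in replicate 2 of day 18, 542 in replicate 4, 202 in replicate 3 and 200 in replicate 1. The part of these library differences in the peaks was not tested.

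The level of the 73 genes together shows the same order of animals. Their median was 6.66, 24.2, 2.62 and 14.9 CPM in replicates 1 to 4 of day 18. It was 2.06 to 4.81 CPM over the libraries of day 5, 1.42 to 2.62 on day 10 and 2.32 to 3.28 on day 14. Replicate 3 of day 18 thus lay inside the range of the earlier days, and the other 3 lay above all 12 earlier libraries. Summed over the 73 genes, the level was 4622, 19670, 1528 and 7719 CPM in replicates 1 to 4 of day 18, a mean of 8385 ± 7937 (SD, n = 4). The means of days 5, 10 and 14 were 2260 ± 1170, 1952 ± 409 and 2192 ± 432.8 CPM. In replicate 2 a single gene made up 6766 of the 19670 CPM.

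**Figure D2:**
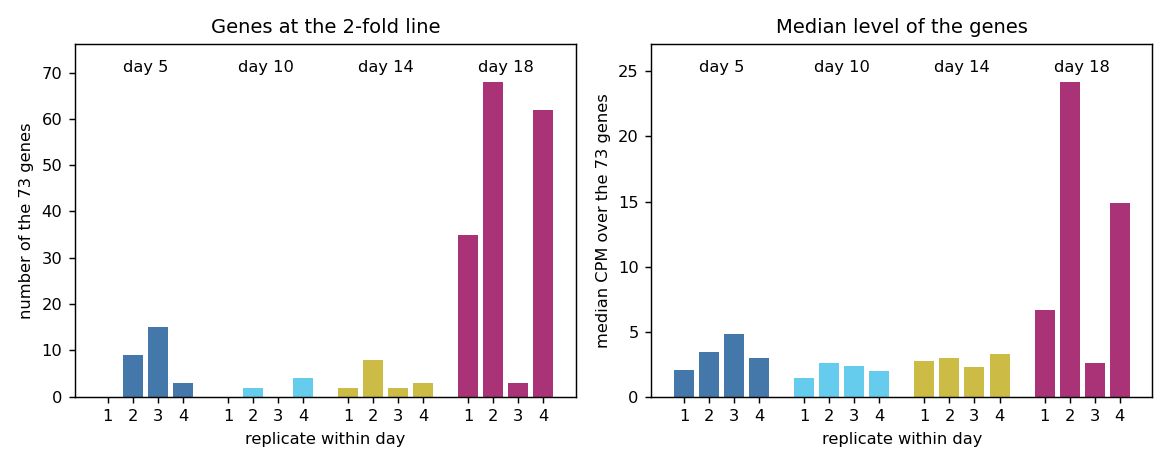
Bars give, for each of the 16 libraries, the number of the 73 genes at the 2-fold line (left) and the median CPM of the 73 genes (right), coloured by day. Day 18 replicates 2 and 4 reach 68 and 62 genes, while day 18 replicate 3 reaches 3, fewer than day 5 replicates 2 and 3 with 9 and 15.

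The spread among animals was wide for these genes, but the rule chose them by these same values, so the day 18 gap is a description. The wider set of genes given beside them was not matched to them in level. The median gap between the highest and the lowest day 18 library was 3.55 on the log2 scale of CPM plus 0.5, and it ran from 0.733 to 8.86 over the 73 genes. Over all 13616 genes with a day 18 median of at least 2 CPM the median gap on day 18 was 1.03. On days 5, 10 and 14 the gap of the 73 genes was 1.85, 1.11 and 1.49, against 0.938, 0.529 and 0.624 over the 13616 genes.

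Sizes of the rise and levels varied widely among the 73. The ratio of the day 18 value to the highest other day value ran from 2.03 to 8.59 with a median of 2.49, and 22 genes had a ratio of 3 or more. The day 18 median ran from 2.22 to 2180 CPM with a median of 8.76. In 37 genes it was under 10 CPM and in 11 it was 100 CPM or more. The highest of the 3 other days was day 5 for 36 genes, day 14 for 28 and day 10 for 9.

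Both genes described first were the ones with the largest ratio among rises carried by 3 libraries and by 2 libraries. ENSBTAG00000026437 was at 10.91, 3.967, 0.04596 and 9.125 CPM in replicates 1 to 4 of day 18, where replicate 3 had 1 read. On day 5 it was at 1.031, 0, 0 and 3.489 CPM, on day 10 it had 1 read in all 4 libraries together, and on day 14 it was at 0, 5.311, 0 and 0 CPM. The gene was thus at 1 read or none in 10 of the 16 libraries, day 18 replicate 3 included, and day 14 replicate 2 lay above day 18 replicate 2. Its day 18 mean was 6.013 ± 4.95 CPM (SD, n = 4), with a ratio of day values of 6.939 that rests on the added 0.5.

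ENSBTAG00000054069 had the largest ratio of all 73 genes, 8.591, and was carried by 2 libraries. It was at 1.126, 249.0, 0.1379 and 42.62 CPM in replicates 1 to 4 of day 18. On day 5 it was at 0.7854, 3.423, 4.551 and 0.5405 CPM, on day 10 at 1.326, 0.09532, 0.2542 and 0.04917, and on day 14 at 6.235, 1.029, 0.6042 and 0.521. Replicates 2 and 4 of day 18 lay above all 12 earlier libraries, and replicates 1 and 3 lay within their range. The day 18 mean of 73.21 ± 118.8 CPM (SD, n = 4) had an SD larger than itself.

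**Figure D3:**
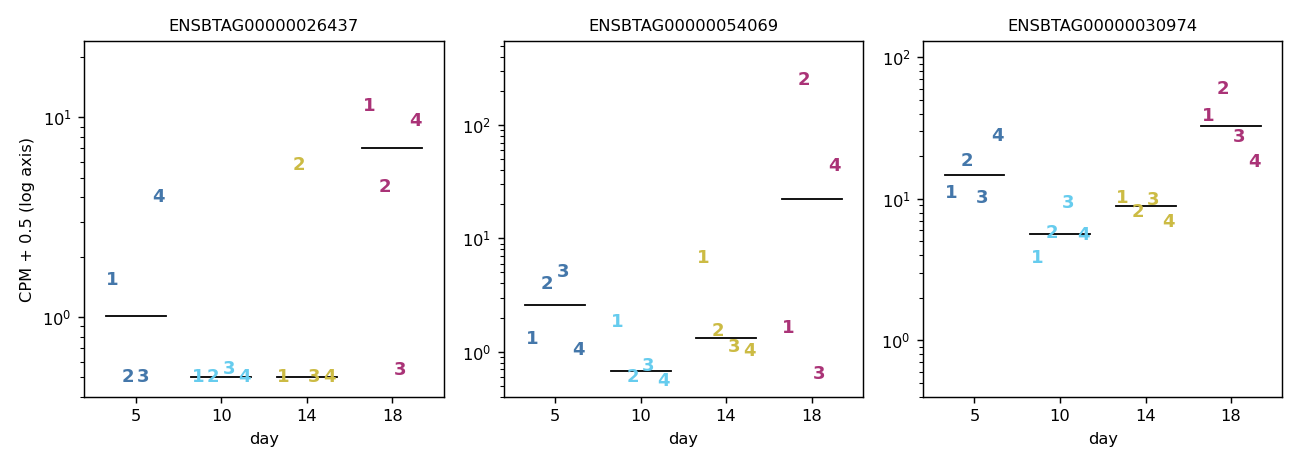
Each digit is the replicate number of 1 library, placed at its CPM plus 0.5 on a log axis, by day; the black line is the day median plus 0.5. In ENSBTAG00000026437 and ENSBTAG00000054069 the day 18 libraries are split, with replicate 3 at 0.04596 and 0.1379 CPM. In ENSBTAG00000030974 the 4 day 18 libraries lie between 17.83 and 58.83 CPM, and only replicates 1 and 2 carry the rise.

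The largest set, 35 of the 73 genes, was carried by replicates 2 and 4 alone. The median level of these 35 genes was 2.35, 27.3, 1.70 and 20.4 CPM in replicates 1 to 4 of day 18, so replicate 1 lay with replicate 3 for this set. On the earlier days the median of the set ran from 0.983 CPM in day 10 replicate 4 to 8.32 CPM in day 5 replicate 3. Of the 35 genes, 11 were at the 2-fold line in day 5 replicate 3 as well, and for 14 that library was the highest of the 12 earlier ones. The gene with the second highest day 18 median of all 73 belonged here. It was at 81.4, 1889, 154 and 1421 CPM in replicates 1 to 4 of day 18 and at 1801 CPM in day 5 replicate 3, against 12.3 to 464 CPM in the other 11 earlier libraries. Another gene of the set reached 6766 CPM in replicate 2 of day 18 and 601 CPM in replicate 4, and was at 14.1 and 14.6 CPM in replicates 1 and 3.

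The second set, 21 genes, was carried by replicates 1, 2 and 4. Its median level was 11.7, 22.2, 3.58 and 13.9 CPM in replicates 1 to 4 of day 18 and 2.26 to 6.04 CPM in the 12 earlier libraries. Among the earlier libraries, day 14 replicate 2 was at the 2-fold line in 7 of the 21 genes and was the highest in 6. The genes ranked 3 and 4 by day 18 median, among all 73, were both in this set. The former was at 599, 615, 45.5 and 267 CPM in replicates 1 to 4 of day 18, and the latter at 567, 1526, 34.6 and 298 CPM. Both were also high in single earlier animals, at 301 and 314 CPM in day 10 replicate 4 and at 337 and 379 CPM in day 14 replicate 2, above day 18 replicate 4 in each case.

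A further set of 11 genes was carried by replicates 1 and 2, with median levels of 23.8, 46.5, 3.68 and 10.8 CPM in replicates 1 to 4 of day 18. Its median ran from 1.36 to 8.63 CPM in the 12 earlier libraries, and 1 of the 11 genes was at the 2-fold line in any of them, in day 5 replicate 3. The other 6 genes were carried by replicates 1 and 4 (3 genes), by replicates 3 and 4 (2 genes) and by replicates 2, 3 and 4 (1 gene).

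Genes of a set varied together only weakly outside day 18. Over the 12 earlier libraries, the mean Pearson correlation between pairs of genes on the log2 scale of CPM plus 0.5 was 0.253 within the 35 genes, 0.177 within the 21 and 0.110 within the 11. Between sets it was 0.0555 for the 35 and the 21, 0.148 for the 35 and the 11, and 0.117 for the 21 and the 11. All pairs share the same libraries and their depth, so these values are descriptions. Some pairs of genes stood near each other in the files. In 6 pairs both genes stood within 5 lines of each other, and in all 6 the same replicates carried both rises. Over the 12 earlier libraries their correlations ran from 0.545 to 0.976, each above the mean of 0.253 between pairs within the 35 genes. All genes of a set share their carrying replicates by definition, so many pairs match in this respect wherever they stand. No background from other neighbouring genes was computed for the number of close pairs, their shared replicates or their correlations. These values therefore only describe the 6 pairs. What orders the lines is not stated in the files, and the treatment of reads that fit several similar genes is not given in the sources used here, so members of such pairs may not be separate measurements.

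A stricter description asks how many day 18 libraries lay above all 12 earlier ones. This was so for 3 libraries in 24 genes, for 2 in 38, for 1 in 4 and for 0 in 7, and never for 4. The count was 35 genes in replicate 1, 59 in replicate 2, 2 in replicate 3 and 56 in replicate 4. The gene with the highest day 18 median was among the 24, at 1562, 2793 and 2903 CPM in replicates 1, 2 and 4 and 696 CPM in replicate 3, against 585 to 1074 CPM in the earlier libraries. Its replicate 3 value lay inside the range of the earlier days. The 12 earlier libraries differed in how often they held the highest earlier value, from 20 genes in day 5 replicate 3 and 11 in day 5 replicate 2 to 0 in day 5 replicate 1.

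The rule applied in the same way to each other day found 258 genes for day 5, 100 for day 10 and 89 for day 14. The rise was carried by all 4 libraries of the day in 14 of the 258, 5 of the 100 and 9 of the 89 genes, and in 0 of the 73 for day 18. Rises carried by only 2 libraries, the fewest the rule allows, made up 71 of 258, 37 of 100, 36 of 89 and 51 of 73 genes. The 4 days were not tested against each other in this respect.

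**Figure D4:**
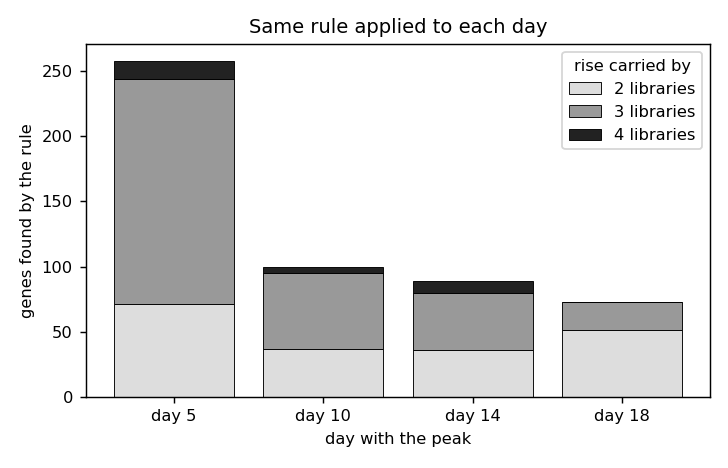
Stacked bars give the number of genes the rule finds for a peak on each day, shaded by how many of the 4 libraries of that day carry the rise. Day 18 has 73 genes, of which 51 are carried by 2 libraries and 22 by 3, and it is the only bar with none carried by 4.

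Near the threshold, the 3 genes just inside had ratios of 2.031, 2.046 and 2.048 and the 3 just outside 1.994, 1.989 and 1.978. The first gene outside was at 691, 676, 112 and 765 CPM in replicates 1 to 4 of day 18, with a highest other day median of 342 CPM. It missed the list by its ratio although 3 of its day 18 libraries lay close together. Outside the 73, the 5 genes whose log2 CPM followed the median profile of the 73 most closely had Pearson correlations of 0.880 to 0.930 over the 16 libraries and ratios of 1.32 to 1.85.

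The list itself depended on single day 18 animals. Without replicate 3 of day 18 the rule found 181 genes, among them 71 of the 73, and 21 of the 181 were carried by all 3 remaining day 18 libraries. Without replicate 2 it found 45 genes, of which 27 were among the 73, and without replicate 1 it found 136, of which 58 were. Without replicate 4 it found 56, of which 32 were among the 73. Leaving out any 1 of the 12 earlier libraries gave 59 to 108 genes, of which 56 to 71 were among the 73. Without the 3 libraries of lowest correlation within their day (day 5 replicate 3, day 18 replicates 2 and 3) the rule found 278 genes, with 65 of the 73, and 37 of the 278 were carried by both remaining day 18 libraries.

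**Figure D5:**
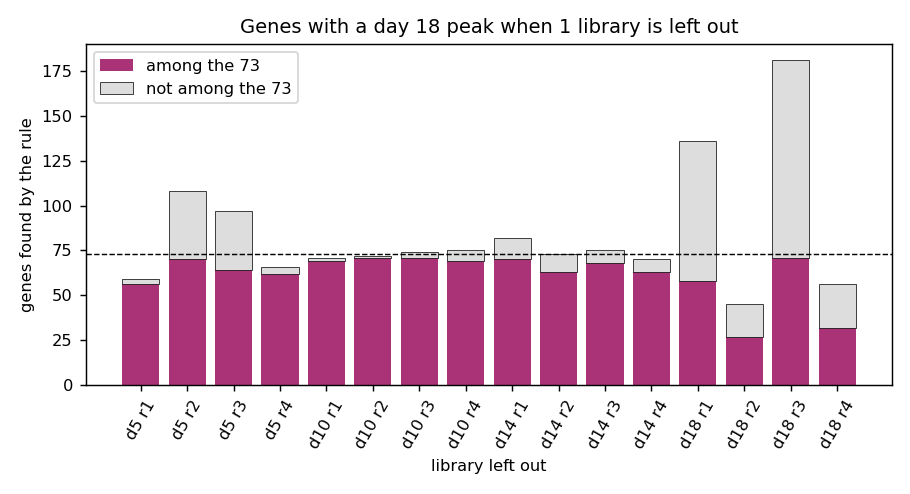
Bars give the number of genes the rule finds when the library on the x axis is left out (d, day; r, replicate), split into genes among the 73 and genes not among them; the dashed line marks 73. Leaving out day 18 replicate 3 gives 181 genes with 71 of the 73, and leaving out day 18 replicate 2 gives 45 with 27 of the 73.

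The contrasts between days 5, 10 and 14 were not used by the rule, which only sets an upper bound on these days, and were tested with edgeR over all 16331 genes with enough reads. Of the 73 genes, 72 passed that filter, while 66 passed it in the libraries of days 5 and 14 alone, 64 in those of days 5 and 10 and 65 in those of days 10 and 14. No gene of the 72 passed an adjusted p of 0.05 (Benjamini-Hochberg) for day 14 against day 5, where 2.25% of all genes tested did. None passed for day 10 against day 5, where 0.141% did, or for day 14 against day 10, where 0.0% did. The fit estimates the spread of a gene from all 4 days, so the wide day 18 spread of these genes makes calls less likely here. The lack of calls thus does not show that their levels were alike. In fits of only the 2 days compared, 0 of 66, 0 of 64 and 0 of 65 were called, in the same order. Of all genes, 7.31%, 1.47% and 0.0% were called in those fits. The edgeR shares over all genes were not stable, since the 367 genes behind the 2.25% became 0 with the replicate number as a block or without day 5 replicate 1, 2 or 4, and 1274 without day 18 replicate 3, and the 23 behind the 0.141% became 1 with the block. DESeq2 called 1, 3 and 0 of the 72 in these 3 contrasts, where it called 13.8%, 7.27% and 0.367% of all genes. Limma-voom with library weights called 2, 6 and 0 of the 72, where it called 25.4%, 22.5% and 0.527% of all genes.

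By median CPM, day 10 was the lowest of the 3 earlier days in 42 of the 73 genes. No share over all genes was computed for this count or for the next one, so neither is read as particular to the 73. The fitted log2 difference of day 10 against day 5 was below 0 in 56 of the 72 genes, with a median of -0.73, against -0.02 over all genes tested, and the median was -0.63 over the 64 genes that passed the filter on days 5 and 10 alone. At an unadjusted p under 0.05, 11 of the 72 were lower on day 10 and 0 higher, where 11.2% of all genes were lower and 8.67% higher. In the fit of only these days 16 of 64 were lower, where 12.7% of all genes were. With DESeq2 18 of 72 were lower, where 12.9% were, and with limma-voom 16 of 72, where 19.2% were. Higher in the same order were 1 of 64, 1 of 72 and 0 of 72, where 9.82%, 9.95% and 17.8% of all genes were. Without day 5 replicate 3 the median was -0.41, and without the 3 libraries of lowest correlation within their day -0.39. Between days 10 and 14 the median difference was 0.50, against 0.03 over all genes. At an unadjusted p under 0.05 by edgeR, 3 genes were higher and 0 lower, where 2.45% and 3.36% of all genes were. In the fit of only these 2 days, 8 of 65 were higher and 0 lower, where 6.17% and 7.06% of all genes were. Between days 5 and 14 the median difference was -0.22, and it changed sign to 0.18 without day 5 replicate 3. At the same p, 0 genes were higher and 3 lower, where 11.7% and 12.9% of all genes were. In the fit of only days 5 and 14, 3 of 66 were higher and 3 lower, where 11.7% and 14.4% of all genes were.

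The 3 contrasts with day 18 are those the rule used, so an excess of higher genes over the background follows from how the genes were chosen, and nothing is read from these counts. For day 18 against day 5, 0 of the 72 genes passed an adjusted p of 0.05 by edgeR, as did 0.0% of all genes tested. At an unadjusted p under 0.05, 43 of the 72 were higher, where 8.1% of all genes were. In 3 of the 72 the fitted log2 difference of day 18 against day 5 was below 0, although their day medians met the rule. For day 18 against day 14, 0 of the 72 passed, as did 0.0% of all genes, with 46 higher at an unadjusted p under 0.05 where 8.08% of all genes were. For day 18 against day 10, 1 of the 72 passed, where 0.0245% of all genes passed as higher. DESeq2 called 14, 16 and 42 of the 72 against days 5, 14 and 10, where it called 1.13%, 1.71% and 4.73% of all genes, and limma-voom 0, 0 and 2, where it called 0.0%, 0.0% and 0.171%. Without replicate 3 of day 18, edgeR called 21, 0 and 22, where it called 5.23%, 0.0% and 1.53% of all genes.

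The 1 gene called against day 10, named here after its values were seen, was ENSBTAG00000030974. It was at 38.03, 58.83, 26.66 and 17.83 CPM in replicates 1 to 4 of day 18, at 10.55, 17.89, 9.625 and 27.12 CPM on day 5, at 3.315, 5.242, 8.897 and 5.015 on day 10 and at 9.597, 7.534, 9.341 and 6.408 on day 14. All 4 day 18 libraries lay above the 8 libraries of days 10 and 14, but replicates 3 and 4 lay below day 5 replicate 4. Its call was lost without day 5 replicate 1 or 2, day 10 replicate 1, 2 or 4, day 14 replicate 1 or day 18 replicate 2, in the fit of only these 2 days and with the replicate number as a block.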

How the data were processed

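Each library came as a deposited table of raw counts by gene, not normalised, in the layout of STAR, per the file headers and the submitters' processing notes, which name FastQC, STAR and edgeR. Neither build nor annotation nor versions are stated in the labels used here. Libraries were stranded and poly(A)-selected, per the labels' protocols. The stranded counts of column 4 were used, and the 4 summary lines of each table stayed out of totals. Reads without a gene feature were 23.1% to 33.4% of those counted in genes, as ambiguous or without a feature. The 73 genes and all settings were chosen with earlier results of these data known.

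Across all genes, edgeR 4.0.16 (filterByExpr by day, TMM, quasi-likelihood with robust estimation, Benjamini-Hochberg, 4 days in 1 fit) was run in R 4.3.3 and tested on simulated data. Alternatives used DESeq2 1.42.0 and limma 3.58.1, other scaling and filters, unstranded counts, a replicate term and left-out libraries. The rule for naming genes allowed 2 IDs where no symbol matches; that these be the largest ratio among rises carried by 3 and by 2 libraries was set afterwards. Deviations from the day mean in same-numbered libraries of days 5 and 10 had correlations of 0.121 to 0.322 in all 4 pairs. Between days 14 and 5 the correlations ran from -0.296 to 0.354, and between days 18 and 10 from -0.284 to -0.093. Libraries of unlike number were not compared, so a pairing by number was not tested, and the labels state none. Each library is from a separate animal, per the labels.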

Additional observations from a re-analysis of the deposited data

Results flagged for a closer look

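In 20 groups of 4 libraries examined (3 named genes, the summed and the median level of the 73 genes, on 4 days each), 2 held a library far from the other 3. Both concern ENSBTAG00000026437 on days when the other 3 libraries had no read, where any single read is set apart in this way, so the rate of about 1 group in 20 that chance gives does not apply. On day 14, replicate 2 was at 5.31 CPM. On day 10, replicate 3 was at 0.0508 CPM, which is 1 read.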

How the results depend on the processing

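The rule found 73 genes as stated and 55 to 80 with an offset of 1 or 0.1, a floor of 5 CPM or none, TMM or RLE scaling, or unstranded counts. With TMM scaling it found 68, of which 62 were among the 73, and with RLE scaling 69, of which 63 were. With the mean in place of the median of a day it found 227, of which 59 were among the 73. With 1 library left out it found 45 to 181, and 278 without the 3 libraries of lowest correlation within their day (day 5 replicate 3, day 18 replicates 2 and 3). The number of the 73 genes called at day 14 against day 5 was 0, but 1 with DESeq2, 2 with limma-voom and 1 without the 3 libraries. At day 10 against day 5 it was 0, but 3 with DESeq2, 6 with limma-voom, 2 without the 3 libraries and 0 to 1 with 1 library left out, the 1 being without day 18 replicate 2. At day 14 against day 10 it was 0 in all 25 alternatives. At day 18 against day 5 it was 0, but 14 with DESeq2, 16 without the 3 libraries, where 14.6% of all genes were called, and 0 to 21 with 1 library left out, the 21 without day 18 replicate 3, where 5.23% were. At day 18 against day 10 the number was 1, but 42 with DESeq2, 2 with limma-voom and 0 in a fit of the 2 days compared. Of all genes, 4.73%, 0.171% and 0.0255% were called in these settings. The number was 9 without the 3 libraries, where 1.8% of all genes were called. With 1 library left out the number was 0 to 22. The 22 were without day 18 replicate 3, where 1.53% of all genes were called. Without day 5 replicate 3 the number was 2, where 0.284% were. At day 18 against day 14 it was 0, but 16 with DESeq2, where 1.71% of all genes were called. With the replicate number as a block the count at day 18 against day 10 was 0, where 0.00612% of all genes were called. The block changed no other count of the 73 genes. The cause of these shifts between tools was not tested. At these depths 2 CPM is 37.9 to 48.6 reads per library. The floor applies only to the day 18 median, so the ratios of the lowest genes rest partly on smaller counts. The gene of lowest day 18 median was at 0.0489, 4.26, 0.184 and 5.27 CPM in replicates 1 to 4 of day 18. Its medians on days 5, 10 and 14 were 0.249, 0.150 and 0.292 CPM.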
